A study of Rattus norvegicus with 6 samples.

Results

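The transcripts described here are those of the core autophagy machinery, 42 genes listed by symbol from the kinase that starts the process to the fusion of the finished vesicle with the lysosome. Of these, 41 were found by symbol among the 18237 rows of the count files and all 41 were abundant enough to be tested; Calcoco1, a receptor for endoplasmic reticulum cargo, was not analysed here. RNA sequencing had been done on total RNA of cultured rat cells labelled NRVM, which commonly stands for ventricular myocytes of newborn rats, while the growth protocol names embryonic myocardium as their source. Cells had received an siRNA against Mt2 (siMt2, n = 3 libraries) or a control siRNA (siNT, n = 3 libraries), both in medium with serum; a protocol text shared by all 6 libraries also names dexamethasone, isobutylmethylxanthine and insulin, without saying whether these cells received them. The Mt2 protein is a metallothionein, rich in cysteines that hold zinc and copper ions. The series design sets a Mt2 knockdown group against a control group.

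Autophagy delivers cytoplasm, damaged organelles and protein aggregates to the lysosome. The ULK1 kinase complex starts it, the class III phosphatidylinositol 3-kinase complex marks the membrane with its lipid, ATG9 and ATG2 supply membrane, and a pair of ubiquitin-like conjugation systems attaches ATG8 proteins (LC3 and GABARAP) to the growing sheet. Receptors such as p62 bind cargo on one side and ATG8 proteins on the other, and syntaxin 17 joins the closed vesicle to the lysosome. In heart muscle the process clears mitochondria and supports cells through starvation and ischemia, and TFEB and TFE3 control many of its genes. Transcript levels were measured here, not the flow of cargo to the lysosome.

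The labels were checked first. In rat the targeted gene is Mt2a, which stood at 70.7, 87.3 and 142 CPM in the libraries labelled siMt2, against 90.7, 169.9 and 93.3 CPM in the siNT libraries. The groups overlapped, and the difference did not pass (log2 fold change -0.28, SE 0.42, adjusted p = 0.631; exact two-sided permutation p = 0.5, where 0.1 is the smallest that 3 against 3 libraries allow). Its 95% interval reached from 0.373 to 1.82 times the siNT level, and without siNT replicate 2 the log2 fold change was 0.052 (adjusted p = 0.923). A lower level of the targeted transcript was thus not detectable in these libraries, and groups are named by their labels throughout. Of 9 cardiomyocyte markers in the files, 8 were too low to be tested, with between 2 (Nppb) and 51 (Pln) counts over all 6 libraries; Myh6 had 9, Actc1 4 and Tnni3 3. Tnnt2, the cardiac troponin T gene, was the exception, with 57.5, 48.5 and 57.4 CPM in the libraries labelled siMt2, against 28.2, 27.7 and 25.6 CPM in the siNT libraries, and was higher (log2 fold change 1.01, SE 0.11, adjusted p = 1.81e-07). The levels of the other 8 go against the label of ventricular myocytes. Tnnt2 was detected, but its means were 54.5 CPM (labelled siMt2) and 27.2 CPM (siNT). Those of the fibroblast marker Vim were 1692 CPM (labelled siMt2) and 1057 CPM (siNT). Gene counts summed to between 2859759 and 6817777 per library labelled siMt2 and between 4216586 and 6567793 per siNT library; 3 counts corresponded to 0.438 to 1.06 CPM (counts scaled to a common library total, with TMM factors between libraries). The labels do not say whether replicates were separate cultures; p-values then cover only the spread among these libraries, possibly a technical one.

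Sequence before the transcription start is shown for the members whose promoter holds CACGTG, the core of the element that TFEB and TFE3 bind, upstream of the start. The 80 bases before the annotated start are given on the gene's strand, with CACGTG in capitals, from RefSeq on assembly GRCr8. Atg3 lies at chr11:69159281-69159360 on the minus strand, Atg5 at chr20:49380755-49380834 on the plus strand and Epg5 at chr18:73679087-73679166 on the plus strand.
Atg3: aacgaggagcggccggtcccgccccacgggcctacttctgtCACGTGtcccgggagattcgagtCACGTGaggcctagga
Atg5: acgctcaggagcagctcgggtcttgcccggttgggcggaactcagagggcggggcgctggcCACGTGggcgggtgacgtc
Epg5: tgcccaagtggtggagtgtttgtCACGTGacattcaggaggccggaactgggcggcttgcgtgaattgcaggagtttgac

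Promoter windows (250 bases before to 50 after the start) were found for 36 of the 41 genes; Atg9a, Becn1, Fundc1, Map1lc3a and Rb1cc1 had no entry. CACGTG, which reads the same on both strands, occurred in 4 of the 36 (11.1%) and in 6.65% of 27457 rat promoters of the same length. The longer core TCACGTGA, which contains CACGTG, occurred in Atg3 and Epg5, 2 of 36 (5.56%), against 0.867% of all. The fourth window with CACGTG was that of Atg14, where it began at base 7 after the start. By transcript call, CACGTG stood in 1 of 7 genes that rose, 1 of 13 that fell and 2 of 16 that did not pass among those with a window. On either strand, TGACNNNGC, the core of the antioxidant response element, stood in 7 of 36 (19.4%) and 12.2% of all promoters, and GTAAACA, which FOXO factors bind, and TGATGNAA, a core bound by ATF4, stood in 0 of 36, against 3.76% and 3.82% of all. A match describes the letters of the window and not a bound site.

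Core autophagy genes that passed the test were more often lower than higher in the libraries labelled siMt2. Of 41 tested, 14 fell and 7 rose at an adjusted p under 0.05 in edgeR's quasi-likelihood test, and 20 did not pass. That is 51.2% of the members, beside 50.9% of all 11726 genes tested, so the share that passed was near the background. Members that fell made up 34.1%, against 25.1% of all genes, and members that rose 17.1%, against 25.8%. The median log2 fold change (siMt2 over siNT) was -0.14 over the members and 4.90e-04 over all genes tested. These are counts without a test of the list; without siMt2 replicate 3, the shallowest library, 7 rose and 15 fell. Changes beyond 1 on the log2 scale passed for 6 members, Atg10, Tfe3 and Stx17 upward and Atg14, Atg4c and Atg2a downward, and for 8.96% of all genes. The groups did not overlap, with the 3 libraries of a group all above or all below the other 3, for 27 of the 41 members. That is 65.9%, beside 57.6% of all genes tested. These were all 21 members that passed and 6 of the 20 that did not. Together the 41 transcripts took 0.418% to 0.431% of the counts in the libraries labelled siMt2, against 0.459% to 0.466% in the siNT libraries; the exact 95% binomial intervals, which cover counting error only, ran from 0.410% to 0.436% over the libraries labelled siMt2 and from 0.454% to 0.472% over the siNT libraries.

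**Figure D1:**
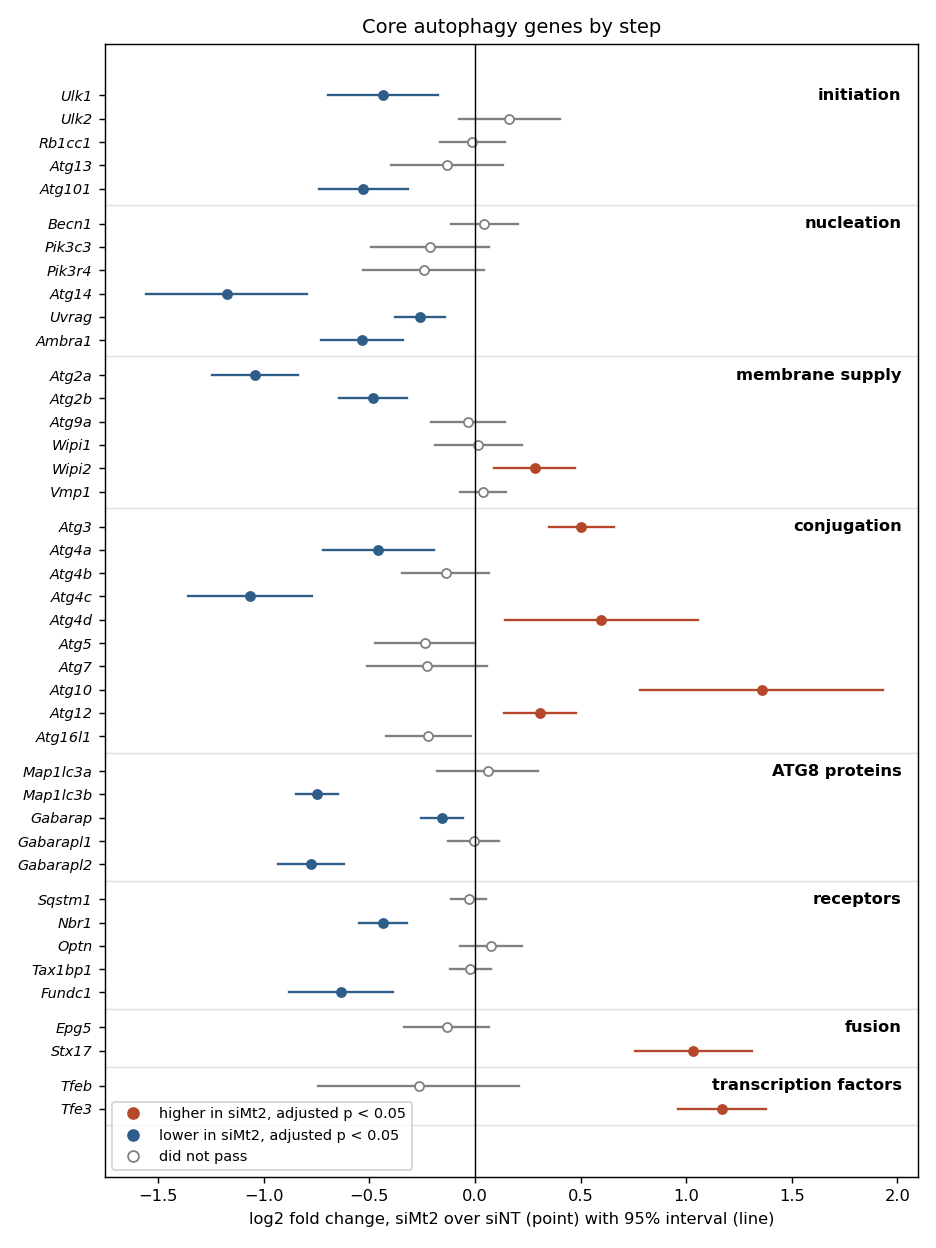
Log2 fold change (siMt2 over siNT, x axis) of 41 core autophagy genes grouped by step, with 95% intervals from edgeR (n = 3 libraries a group). Filled points passed an adjusted p of 0.05, 7 to the right of 0 and 14 to the left; Atg10 is farthest right at 1.36 and Atg14 farthest left at -1.18.

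Other features of the samples moved with the groups. Summed levels of 6 smooth muscle and pericyte markers, 5 of them in the files, were 4084 to 4175 CPM in the libraries labelled siMt2 and 2315 to 2354 CPM in the siNT libraries, most of it Acta2, with 4 higher and 1 lower. Fibroblast markers (7 of 8 in the files) summed to 9300 to 13119 CPM in the libraries labelled siMt2, against 6903 to 7054 CPM in the siNT libraries, most of it Col1a1, with 5 of 6 tested higher. Col1a2 did not pass and varied among the libraries labelled siMt2, at 327, 1151 and 238 CPM. Dcn, called higher, had 50 counts in all and Pdgfra 2. Cardiomyocyte markers (9 of 10 in the files) summed to 51.3 to 63.7 CPM in the libraries labelled siMt2, against 29.3 to 32.2 CPM in the siNT libraries, most of it Tnnt2. Endothelial markers (3 of 6 in the files) summed to 33.5 to 40.9 CPM in the libraries labelled siMt2, against 76.3 to 85.1 CPM in the siNT libraries, most of it Eng. Leukocyte markers (5 of 6 in the files) summed to 14.3 to 17.3 CPM in the libraries labelled siMt2, against 22.7 to 27.4 CPM in the siNT libraries, most of it Cd14, while Ptprc had 2 counts in all. In bulk RNA, fewer cells of a type and less RNA per cell cannot be told apart, and the part of these differences in the autophagy genes was not tested.

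Among the 5 initiation genes 2 fell and 3 did not pass (40% passed, beside 50.9% of all genes tested). Atg101, which stabilises ATG13 within the ULK1 complex, stood at 47.2, 54.2 and 40.1 CPM in the libraries labelled siMt2, against 65.0, 71.7 and 69.4 CPM in the siNT libraries. It fell with no overlap between groups (log2 fold change -0.53, SE 0.10, adjusted p = 0.000194). Ulk1, the kinase itself, stood at 36.2, 38.3 and 25.0 CPM in the libraries labelled siMt2, against 45.2, 43.0 and 49.4 CPM in the siNT libraries, and fell as well (log2 fold change -0.44, SE 0.12, adjusted p = 0.00632). The lowest value of each of these genes was that of siMt2 replicate 3; without it the log2 fold changes were -0.45 and -0.31, and both still passed. The related kinase gene Ulk2 stood at 31.1, 32.9 and 35.9 CPM in the libraries labelled siMt2, against 27.1, 31.1 and 30.2 CPM in the siNT libraries, which did not pass (log2 fold change 0.16, SE 0.12, adjusted p = 0.250) and had a log2 fold change of the opposite sign. The ratio of Ulk2 to Ulk1 counts was 0.859, 0.858 and 1.44 in the libraries labelled siMt2, against 0.600, 0.722 and 0.612 in the siNT libraries. Such ratios carry no correction for transcript length and compare groups, not genes; for those without overlap the exact permutation p can be no smaller than 0.1. Neither the scaffold gene Rb1cc1, which encodes FIP200, nor Atg13 passed. Their means were 109 ± 12.2 CPM (labelled siMt2) and 109 ± 2.40 CPM (siNT) for Rb1cc1 and 26.3 ± 3.67 CPM (labelled siMt2) and 28.9 ± 1.27 CPM (siNT) for Atg13.

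Among the 6 nucleation genes, 3 fell, Atg14, Ambra1 and Uvrag, and 3 did not pass (50% passed, beside 50.9% of all genes tested). Atg14, which directs the kinase complex to autophagosome formation, had the deepest fall of all 41 genes, a rank that rests on siMt2 replicate 2: without it the log2 fold change was -1.0 for Atg14 and -1.09 for Atg2a. Its level was 9.93, 6.62 and 10.6 CPM in the libraries labelled siMt2, against 19.5, 21.7 and 20.1 CPM in the siNT libraries. Each library labelled siMt2 lay well below each siNT library (log2 fold change -1.18, SE 0.18, adjusted p = 2.09e-05), and its smallest count was 28. Ambra1, which links beclin to the ULK1 complex, stood at 47.6, 45.9 and 56.0 CPM in the libraries labelled siMt2, against 68.5, 72.4 and 73.4 CPM in the siNT libraries, and fell (log2 fold change -0.54, SE 0.09, adjusted p = 7.16e-05). Uvrag, which takes the place of ATG14 in another kinase complex that acts on endosomes, fell by a smaller amount, with 140.1, 143 and 151 CPM in the libraries labelled siMt2, against 168, 179 and 171 CPM in the siNT libraries (log2 fold change -0.26, SE 0.06, adjusted p = 0.000698). The 95% intervals of the log2 fold changes, -1.56 to -0.79 for Atg14 and -0.38 to -0.14 for Uvrag, did not overlap. The kinase gene Pik3c3, also called Vps34, averaged 22.0 ± 0.908 CPM (labelled siMt2) and 25.5 ± 2.87 CPM (siNT) and its anchor Pik3r4 20.4 ± 1.22 CPM (labelled siMt2) and 24.5 ± 2.59 CPM (siNT); neither passed (log2 fold change -0.21 and -0.24, adjusted p = 0.196 and 0.150). Becn1, the beclin gene, averaged 115 ± 10.5 CPM (labelled siMt2) and 112 ± 9.87 CPM (siNT) (log2 fold change 0.04, 95% interval -0.12 to 0.20). Pik3r4 overlaps Rpl29 in the RefSeq annotation of GRCr8. Rpl29 averaged 492 ± 37.1 CPM (labelled siMt2) and 383 ± 5.16 CPM (siNT) and rose (log2 fold change 0.37, SE 0.05, adjusted p = 3.96e-06). Becn1 overlaps Cntd1, and Wipi1, described below, overlaps Arsg. The part of these overlaps in the levels was not tested.

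Genes for membrane supply went both ways, 2 lower and 1 higher of 6 (50% passed, beside 50.9% of all genes tested). Both genes of the lipid transfer protein ATG2 fell. Atg2a stood at 45.0, 45.9 and 35.6 CPM in the libraries labelled siMt2, against 95.9, 85.8 and 82.9 CPM in the siNT libraries, with no overlap (log2 fold change -1.04, SE 0.10, adjusted p = 2.71e-08). Atg2b stood at 98.1, 85.1 and 88.0 CPM in the libraries labelled siMt2, against 124, 141 and 119 CPM in the siNT libraries, again apart (log2 fold change -0.48, SE 0.08, adjusted p = 2.51e-05). Their 95% intervals, -1.25 to -0.84 for Atg2a and -0.64 to -0.32 for Atg2b, did not overlap, and the ratio of Atg2b to Atg2a counts was 2.18, 1.86 and 2.48 in the libraries labelled siMt2, against 1.29, 1.65 and 1.43 in the siNT libraries. Wipi2, which reads the kinase's lipid and recruits ATG16L1, was the gene that rose, with 66.0, 72.6 and 64.1 CPM in the libraries labelled siMt2, against 59.1, 50.2 and 56.7 CPM in the siNT libraries (log2 fold change 0.28, SE 0.09, adjusted p = 0.0140). Its call was lost without siMt2 replicate 2 (log2 fold change 0.23, adjusted p = 0.0692) or siNT replicate 2 (0.22, adjusted p = 0.0795). The other lipid reader gene, Wipi1, stood at 43.4, 40.9 and 43.3 CPM in the libraries labelled siMt2, against 42.1, 41.3 and 42.6 CPM in the siNT libraries. It did not pass, nor did the membrane carrier gene Atg9a at 66.4 ± 2.58 CPM (labelled siMt2) and 68.4 ± 3.68 CPM (siNT). Vmp1, a lipid scramblase of the endoplasmic reticulum, averaged 186 ± 0.995 CPM (labelled siMt2) and 181 ± 3.14 CPM (siNT) (95% interval of the log2 fold change -0.07 to 0.15).

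Conjugation genes were divided, with 4 of 10 higher, 2 lower and 4 that did not pass. That is 60% that passed, beside 50.9% of all genes tested. Higher were 40%, beside 25.8% of all genes, and lower 20%, beside 25.1%. The 4 that rose were Atg10, Atg3, Atg12 and Atg4d. ATG10 is the enzyme that hands ATG12 to ATG5. Atg10 transcripts stood at 10.5, 6.86 and 8.80 CPM in the libraries labelled siMt2, against 4.15, 2.87 and 3.22 CPM in the siNT libraries, the largest rise of all 41 genes (log2 fold change 1.36, SE 0.28, adjusted p = 0.000365). Its counts were low, at 72, 29 and 25 in the libraries labelled siMt2 and 23, 12 and 21 in the siNT libraries, and over 13 alternative settings its log2 fold change lay between 1.17 and 1.51.

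Atg3, which encodes the enzyme that transfers ATG8 proteins to their lipid and whose promoter is printed above, stood at 100.4, 109 and 108 CPM in the libraries labelled siMt2, against 70.3, 78.9 and 74.3 CPM in the siNT libraries. The groups were apart (log2 fold change 0.50, SE 0.07, adjusted p = 1.03e-05). Atg12, the ubiquitin-like protein itself, stood at 75.5, 72.1 and 79.9 CPM in the libraries labelled siMt2, against 63.4, 59.3 and 60.2 CPM in the siNT libraries, a smaller rise (log2 fold change 0.31, SE 0.08, adjusted p = 0.00378). The remaining conjugation genes Atg5, Atg7 and Atg16l1 were all lower on average and did not pass. Means were 34.4 ± 5.08 CPM (labelled siMt2) and 39.9 ± 1.73 CPM (siNT) for Atg5, the acceptor of ATG12. For Atg7, the activating enzyme of both systems, they were 19.1 ± 0.987 CPM (labelled siMt2) and 22.5 ± 1.35 CPM (siNT), and for Atg16l1, which places the conjugate on the membrane, 41.1 ± 0.588 CPM (labelled siMt2) and 47.9 ± 1.60 CPM (siNT). Adjusted p was 0.0922, 0.175 and 0.0636 for these 3 genes. Without siMt2 replicate 3, the highest Atg5 value of its group, Atg5 passed as lower (log2 fold change -0.33, adjusted p = 0.0150).

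The 4 genes of the ATG4 proteases, which trim ATG8 proteins before conjugation and release them afterwards, did not move together. Atg4c stood at 14.7, 13.0 and 16.2 CPM in the libraries labelled siMt2, against 33.1, 27.5 and 30.3 CPM in the siNT libraries, a fall of all 3 libraries below the siNT range (log2 fold change -1.06, SE 0.14, adjusted p = 2.78e-06). Atg4a fell less, with 22.5, 20.1 and 23.2 CPM in the libraries labelled siMt2, against 32.3, 29.9 and 28.2 CPM in the siNT libraries (log2 fold change -0.46, SE 0.13, adjusted p = 0.00473). Atg4d went the other way, with 11.1, 10.9 and 8.45 CPM in the libraries labelled siMt2, against 6.86, 7.41 and 6.28 CPM in the siNT libraries (log2 fold change 0.60, SE 0.22, adjusted p = 0.0281). That rise rests on counts of 76, 46 and 24 in the libraries labelled siMt2 and 38, 31 and 41 in the siNT libraries. It lost its call without siMt2 replicate 1 (log2 fold change 0.52, adjusted p = 0.122), siMt2 replicate 2 (0.56, 0.0762), siNT replicate 1 (0.60, 0.0631) or siNT replicate 3 (0.53, 0.0976), and in DESeq2 (0.59, 0.0969). Atg4d also overlaps Kri1 in the RefSeq annotation of GRCr8, and whether the counting used strand is not stated; Kri1 averaged 32.9 ± 3.13 CPM in the libraries labelled siMt2 and 29.2 ± 3.96 CPM in the siNT libraries and did not pass (log2 fold change 0.17). Atg4b, which encodes the protease with the widest action on ATG8 proteins, averaged 41.8 ± 2.31 CPM (labelled siMt2) and 46.0 ± 1.53 CPM (siNT) and did not pass (log2 fold change -0.14, SE 0.10, adjusted p = 0.255). Counts of Atg4c per count of Atg4b were 0.361, 0.293 and 0.404 in the libraries labelled siMt2, against 0.696, 0.618 and 0.658 in the siNT libraries. Counts of Atg4d per count of Atg4b were 0.271, 0.245 and 0.211 in the libraries labelled siMt2, against 0.144, 0.167 and 0.136 in the siNT libraries.

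**Figure D2:**
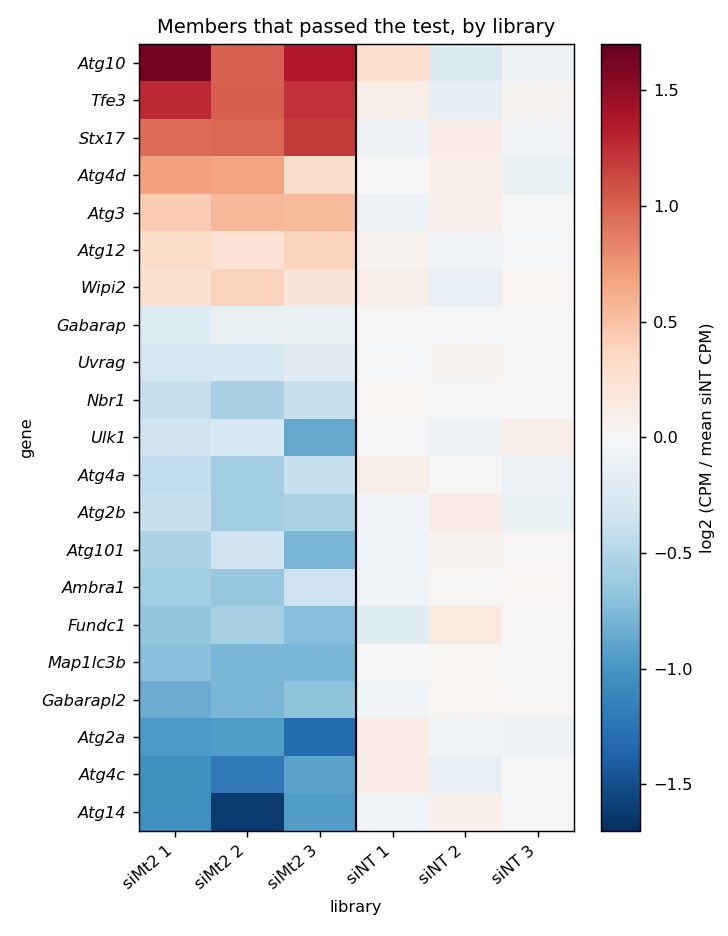
Level of the 21 members that passed, by library (columns, siMt2 1 to 3 left of siNT 1 to 3), as log2 of CPM over the gene's mean siNT CPM; rows run from the largest rise, Atg10, to the deepest fall, Atg14. Red cells are above and blue cells below the siNT mean; siMt2 3 is the palest of its group for Atg4d and the darkest for Ulk1, Atg101 and Atg2a.

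Transcripts of the ATG8 proteins fell in 3 of 5 cases, and the other 2 did not pass (60% passed, beside 50.9% of all genes tested). Map1lc3b, which encodes LC3B, the usual marker of autophagosomes, stood at 209, 199 and 199 CPM in the libraries labelled siMt2, against 339, 349 and 335 CPM in the siNT libraries. It had the smallest adjusted p of the members (log2 fold change -0.75, SE 0.05, adjusted p = 1.02e-10), and its log2 fold change lay between -0.77 and -0.73 over 13 alternative settings. Gabarapl2, also called GATE-16, stood at 59.6, 62.7 and 66.9 CPM in the libraries labelled siMt2, against 104, 109 and 109 CPM in the siNT libraries, a fall of like size (log2 fold change -0.78, SE 0.08, adjusted p = 3.99e-08). Counts of Gabarapl2 per count of Map1lc3b were 0.285, 0.314 and 0.336 in the libraries labelled siMt2, against 0.306, 0.314 and 0.324 in the siNT libraries, and overlapped. Gabarap stood at 248, 264 and 267 CPM in the libraries labelled siMt2, against 289, 285 and 290.3 CPM in the siNT libraries (log2 fold change -0.16, SE 0.05, adjusted p = 0.0113); its call was lost without siMt2 replicate 1, its lowest value (log2 fold change -0.12, adjusted p = 0.0933).

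Gabarapl1, the closest relative of Gabarap, stood at 152, 151 and 141 CPM in the libraries labelled siMt2, against 154, 147 and 146 CPM in the siNT libraries. The groups overlapped, and the 95% interval of the log2 fold change was -0.13 to 0.11. Map1lc3a, the LC3A gene, averaged 33.4 ± 1.71 CPM (labelled siMt2) and 32.5 ± 3.70 CPM (siNT), with an interval of -0.18 to 0.30. Gabarapl1 counts per Map1lc3b count were 0.729, 0.758 and 0.705 in the libraries labelled siMt2, against 0.455, 0.423 and 0.437 in the siNT libraries. These did not overlap, nor did the ratios of Gabarap and Map1lc3a to Map1lc3b, which itself fell. Gabarapl1 counts per Gabarap count were 0.615, 0.572 and 0.527 in the libraries labelled siMt2, against 0.532, 0.517 and 0.504 in the siNT libraries, and overlapped. Summed over the 5 genes, ATG8 transcripts reached 704, 710.4 and 705 CPM in the libraries labelled siMt2, against 916, 928 and 911 CPM in the siNT libraries. ATG8 genes resemble each other and have processed copies, and the handling of reads that match several places is a setting not given in the sources used here, so these levels are uncertain. Gabarapl2 likewise overlaps Adat1; Adat1 averaged 15.1 ± 3.49 CPM in the libraries labelled siMt2 and 14.7 ± 0.942 CPM in the siNT libraries and did not pass.

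**Figure D3:**
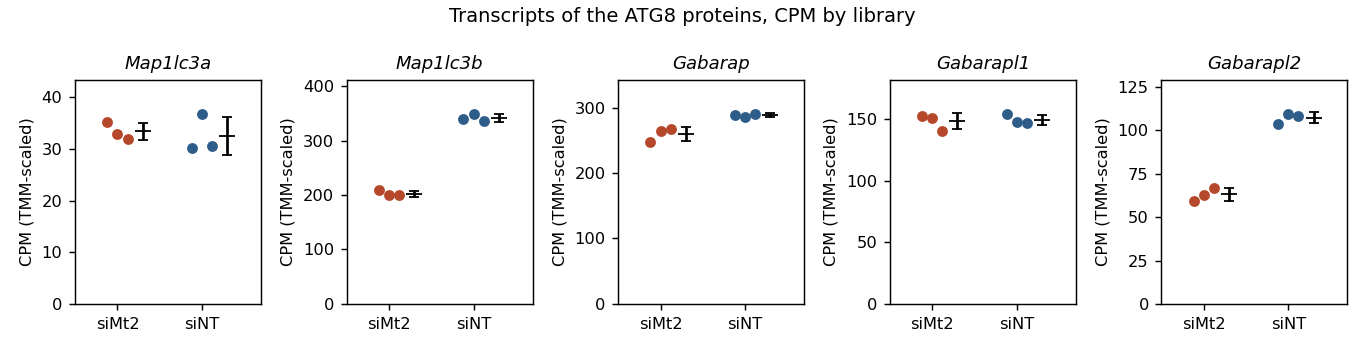
CPM (y axis, from 0, a scale for each gene) of the 5 ATG8 genes in each library labelled siMt2 (left, red) and siNT (right, blue), with the mean and SD beside the points (n = 3). Map1lc3b and Gabarapl2 are apart in all libraries, Gabarap narrowly so, and Map1lc3a and Gabarapl1 overlap.

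Of the 5 receptor genes measured, 2 fell and 3 did not pass (40% passed, beside 50.9% of all genes tested). Nbr1, a receptor for ubiquitylated aggregates and peroxisomes, stood at 196, 175 and 198 CPM in the libraries labelled siMt2, against 262, 249.8 and 256 CPM in the siNT libraries, with no overlap (log2 fold change -0.43, SE 0.06, adjusted p = 1.53e-06). Fundc1, a receptor in the outer membrane of mitochondria that acts in hypoxia, stood at 27.2, 29.1 and 26.1 CPM in the libraries labelled siMt2, against 37.2, 48.3 and 43.2 CPM in the siNT libraries, and fell (log2 fold change -0.63, SE 0.12, adjusted p = 0.000142). Sqstm1, which encodes p62, stood at 1253, 1226 and 1139.9 CPM in the libraries labelled siMt2, against 1242, 1245 and 1211 CPM in the siNT libraries. The groups overlapped, and the 95% interval reached from 0.925 to 1.04 times the siNT level. Counts of Sqstm1 per count of Nbr1 were 6.41, 7.00 and 5.77 in the libraries labelled siMt2, against 4.74, 4.99 and 4.73 in the siNT libraries. Tax1bp1, a receptor for ubiquitylated cargo, averaged 365 ± 16.5 CPM (labelled siMt2) and 369.8 ± 8.75 CPM (siNT), and Optn, the optineurin gene, 89.5 ± 2.73 CPM (labelled siMt2) and 84.6 ± 1.17 CPM (siNT); neither passed (log2 fold change -0.02 and 0.08).

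Of the fusion pair, Stx17 rose and Epg5 did not pass. Stx17, the syntaxin of the closed autophagosome, stood at 31.4, 32.2 and 37.0 CPM in the libraries labelled siMt2, against 15.4, 17.7 and 15.8 CPM in the siNT libraries. Its level was 2.05 times that of the siNT libraries, with a 95% interval of 1.69 to 2.48 (log2 fold change 1.03, SE 0.13, adjusted p = 1.86e-06). Epg5, the tether that favours fusion with late endosomes and lysosomes and whose promoter is printed above, averaged 58.3 ± 5.41 CPM (labelled siMt2) and 63.1 ± 5.38 CPM (siNT) (log2 fold change -0.13, adjusted p = 0.265).

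The transcription factor pair also divided. Tfe3 stood at 86.7, 73.1 and 84.5 CPM in the libraries labelled siMt2, against 38.7, 32.3 and 37.1 CPM in the siNT libraries. It rose to 2.25 times the siNT level, with a 95% interval of 1.95 to 2.60 (log2 fold change 1.17, SE 0.10, adjusted p = 5.93e-09). Tfeb, which encodes the better known regulator of lysosome and autophagy genes, stood at 7.74, 7.33 and 5.63 CPM in the libraries labelled siMt2, against 7.95, 8.84 and 8.74 CPM in the siNT libraries. That difference did not pass (log2 fold change -0.27, SE 0.23, adjusted p = 0.349), although the groups did not overlap. Counts of Tfe3 per count of Tfeb were 11.2, 9.97 and 15.0 in the libraries labelled siMt2, against 4.86, 3.65 and 4.25 in the siNT libraries. The remaining genes of this factor family, Mitf and Tfec, named after their values were seen, fell: Mitf stood at 13.4, 16.6 and 13.4 CPM in the libraries labelled siMt2, against 25.1, 18.9 and 25.7 CPM in the siNT libraries (log2 fold change -0.70, SE 0.16, adjusted p = 0.00113). Tfec averaged 3.80 ± 0.283 CPM (labelled siMt2) and 6.52 ± 0.0695 CPM (siNT), a low level at these depths (log2 fold change -0.76, SE 0.27, adjusted p = 0.0247). Its call was lost in DESeq2 (adjusted p = 0.0926) and with any library but siNT replicate 2 left out (adjusted p between 0.0511 and 0.0663). TFEB and TFE3 are controlled mainly by phosphorylation and entry into the nucleus, which were not measured.

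**Figure D4:**
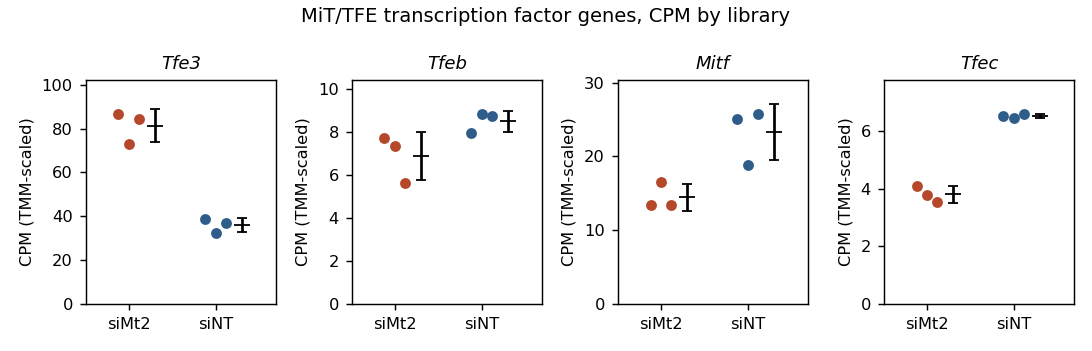
CPM (y axis, from 0, a scale for each gene) of the 4 genes of the MiT/TFE factor family in each library labelled siMt2 (left, red) and siNT (right, blue), with mean and SD beside the points (n = 3). Tfe3 is higher in all 3 siMt2 libraries, and Mitf and Tfec are lower; Tfeb is lower by a difference that did not pass.

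Genes around the core pathway were counted from lists outside the 41. Of 30 genes of mTORC1 and AMPK signalling, which hold the ULK1 complex off or switch it on, 7 rose and 8 fell. Ddit4, an mTORC1 inhibitor also called REDD1, averaged 96.2 ± 9.89 CPM (labelled siMt2) and 62.8 ± 0.569 CPM (siNT) (log2 fold change 0.62, SE 0.08, adjusted p = 3.08e-06), and Prkab2, a regulatory subunit of AMPK, 50.5 ± 4.62 CPM (labelled siMt2) and 28.5 ± 2.68 CPM (siNT) (log2 fold change 0.82, SE 0.11, adjusted p = 3.42e-06). Rraga, a GTPase that brings mTORC1 to the lysosome, fell, at 52.8 ± 5.43 CPM (labelled siMt2) and 84.6 ± 5.56 CPM (siNT) (log2 fold change -0.65, SE 0.09, adjusted p = 4.98e-06). Medians of the list and of all genes were -0.065 and 4.90e-04, and 50% of the list passed, as did 50.9% of all genes.

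Of 14 mitophagy genes 5 rose and 1 fell, so 42.9% passed, beside 50.9% of all genes tested; the median log2 fold change of the list was 0.069, beside 4.90e-04 over all genes. Bnip3, a hypoxia-induced receptor on mitochondria, averaged 300.3 ± 1.36 CPM (labelled siMt2) and 128 ± 6.53 CPM (siNT) (log2 fold change 1.24, SE 0.05, adjusted p = 1.83e-13). The damage markers Nipsnap1 (log2 fold change 0.82, SE 0.11) and Nipsnap2 (0.81, SE 0.12) rose too. Pink1, the kinase that tags depolarised mitochondria and was named after its value was seen, stood at 10.1, 8.28 and 7.04 CPM in the libraries labelled siMt2, against 16.8, 12.7 and 19.6 CPM in the siNT libraries and fell (log2 fold change -0.92, SE 0.20, adjusted p = 0.000782). Fundc1 and Bnip3, both receptors of mitochondria, thus moved in opposite directions in the same libraries.

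Genes for vesicle fusion beyond Stx17 and Epg5 were lower in 5 and higher in 2 of 16 tested, so 43.8% passed, beside 50.9% of all genes, with a median log2 fold change of 0.040. Vps11 and Vps33a, subunits of the HOPS tether, averaged 52.5 ± 1.13 CPM (labelled siMt2) and 89.7 ± 2.32 CPM (siNT) (log2 fold change -0.78, SE 0.08, adjusted p = 8.91e-08) and 39.8 ± 5.71 CPM (labelled siMt2) and 70.6 ± 3.39 CPM (siNT) (log2 fold change -0.86, SE 0.10, adjusted p = 8.82e-07). Rab7a, the GTPase of late endosomes, averaged 345 ± 11.9 CPM (labelled siMt2) and 438 ± 24.8 CPM (siNT) (log2 fold change -0.35, SE 0.05, adjusted p = 6.43e-06). Lysosomal membrane genes were lower in 4 of 10 cases and higher in 1, so 50% passed, beside 50.9% of all genes, with a median log2 fold change of -0.19. Those that fell included Lamp1 (log2 fold change -0.83), the cholesterol exporter gene Npc1 (-0.70, SE 0.06) and the channel gene Tpcn1 (-0.45, SE 0.06). Stx17 stood above its siNT range while Vps11, Vps33a and Rab7a, named for the smallest adjusted p of their list, each stood below theirs. Of the other HOPS subunit genes, Vps18 fell (log2 fold change -0.64), and Vps16 (0.19), Vps39 (-0.15) and Vps41 (0.13) did not pass. Elsewhere in the fusion list Plekhm1 fell (-0.41), and Arl8b (0.21) and Bloc1s1 (0.65) rose.

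Of 7 receptor genes for the endoplasmic reticulum 2 rose and 3 fell, so 71.4% passed, beside 50.9% of all genes, with a median log2 fold change of -0.10. Atl3, an atlastin that binds GABARAP proteins, averaged 196 ± 9.39 CPM (labelled siMt2) and 131 ± 1.82 CPM (siNT) (log2 fold change 0.58, SE 0.06, adjusted p = 4.75e-08), while Tex264 (-0.49, SE 0.09) and Sec62 (-0.26, SE 0.06) fell. Of 20 other genes of autophagosome formation 5 rose and 6 fell (55% passed, median log2 fold change 0.056). Wdfy3, which encodes the aggregate adaptor ALFY, averaged 120.3 ± 5.70 CPM (labelled siMt2) and 182 ± 2.87 CPM (siNT) (log2 fold change -0.59, SE 0.06, adjusted p = 4.32e-08), while Usp10, a deubiquitinase of beclin (0.67, SE 0.07), and Tecpr1, which binds the ATG12 to ATG5 conjugate (0.54, SE 0.09), rose. Of 12 genes of transcriptional control 4 rose and 4 fell (66.7% passed, median log2 fold change 0.022). The smallest adjusted p was that of Ddit3, the stress factor CHOP, at 139 ± 8.95 CPM (labelled siMt2) and 44.6 ± 2.36 CPM (siNT) (log2 fold change 1.63, SE 0.08, adjusted p = 9.66e-13); Srebf2 (0.38, SE 0.07) rose and Crtc2 (-0.45, SE 0.10) fell.

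Replicate scatter of the members was small beside the larger changes. The coefficient of variation of CPM over the 3 libraries had a median of 6.53% over the 41 genes in the libraries labelled siMt2 and 5.70% in the siNT libraries. Its highest value was 23.4% (Atg14) in the libraries labelled siMt2 and 19.5% (Atg10) in the siNT libraries. The 20 members that did not pass had log2 fold changes between -0.27 (Tfeb) and 0.16 (Ulk2), 10 of them within 0.1 of 0, with 95% intervals of at most 0.48 to each side.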

How the data were processed

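The 6 libraries were grouped by their titles. For each library the authors deposited a table of unnormalised integer counts by gene; per the submitters' processing notes Trimmomatic 0.40, HISAT2 2.2.1, featureCounts, limma, DESeq2 and build rn6 were used, in an order and with settings not given in the sources used here, strand and multiple matches included. Libraries came from a SMARTer mRNA-seq kit, per the labels' protocols. All files hold the same 18237 rows; 25 gene names had become dates, carry 0.260% of the counts and stayed in the fit unnamed. No column lacked a sample.

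The test was run with edgeR 4.0.16 under R 4.3.3: filterByExpr (minimum count 10), TMM scaling, robust quasi-likelihood test, two-sided, Benjamini-Hochberg adjustment over 11726 genes, threshold 0.05. SE is the log2 fold change over the root of F; intervals are 95%. CPM is TMM-scaled; mean ± SD is over n = 3 libraries. Depth, 2859759 to 6817777 counts, sets the precision, and count-based limits cover counting error only. Counts were also simulated for 11726 genes with a single dispersion for all, 66 of them changed by 0.5, 67 by 1 and 67 by 2 (log2). The test recovered 65.2%, 92.5% and 98.5% of these, with 3.93% of calls false. In the data 50.9% of genes passed and scatter varied by gene, so these rates need not hold there.

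Members and lists were chosen with earlier results of these data known. Every member is accounted for: those past the threshold by library, the rest by means or range. Other lists are given by up to 3 genes with the smallest adjusted p. Beyond that rule, Mitf, Tfec and Pink1 were named after their values were seen. The other HOPS subunit genes, Plekhm1, Arl8b and Bloc1s1 were likewise named beyond it, from the fusion list. Older symbols were matched through a RefSeq gene table of GRCr8, used for names and neighbours. Promoters were matched by symbol. The median chi-square over genes was 1.57 to 2.23 times what counting alone gives for pairs within a group and 7.99 to 12.9 times across groups, so all libraries were kept as separate samples. Alternatives were DESeq2's size factors, library totals, no filter, a stricter filter, DESeq2 1.42.0, limma-voom (limma 3.58.1), a replicate block and each library left out.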

Additional observations from a re-analysis of the deposited data

How the results depend on the processing

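Of 13 alternative settings, DESeq2's size factors, library totals, both other filters and limma-voom called the same 21 members (7 higher, 14 lower). DESeq2 called 20 (6 and 14), losing Atg4d. With 1 library left out in turn, 5 to 7 members were higher and 13 to 15 lower; genes called numbered 5109 to 6254 (2601 to 3162 higher, 2481 to 3092 lower), and Mt2a's log2 fold change lay between -0.56 and 0.052. Calls lost or gained with 1 library are given beside Wipi2, Atg4d, Gabarap and Atg5 above. Of the genes named from the other lists, 24 were rerun: those with the smallest adjusted p of their list, and Mitf, Tfec and Pink1. All of these 24 but Tfec kept their direction and call under each of these settings that tested them. The other HOPS subunit genes, Plekhm1, Arl8b, Bloc1s1, the overlapping neighbours and the cell type markers were not rerun. Whether their calls hold under these settings was not tested. Over all settings genes called ranged from 4961 (DESeq2) to 6276 (no filter), and the median log2 fold change of the members from -0.18 to -0.11. No pairing by replicate number was detectable, which does not show how the libraries were made. Deviations of same-numbered libraries from their group means correlated at -0.0010, -0.058 and 0.025 over genes, and those of differently numbered libraries at between -0.063 and 0.075. With the numbers as a replicate block 5897 genes (2968 higher, 2929 lower), 6 members higher and 14 lower were called, Atg4d being lost (adjusted p = 0.0504), and Mt2a's log2 fold change was -0.25.

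Sign changes were limited to genes that did not pass under any setting. With 1 library left out in turn, log2 fold changes ran from -0.088 to 0.039 for Rb1cc1 (above 0 also at 0.035 and 0.0074), from -0.028 to 0.10 for Becn1 (below 0 also at -0.026), from -2.18e-04 to 0.047 for Wipi1, from -0.028 to 0.027 for Gabarapl1 (above 0 also at 0.011), from -0.056 to 0.012 for Sqstm1 and from -0.051 to 0.0055 for Tax1bp1. Gabarapl1 was at 0.0039 with library totals and 0.0015 with the stricter filter. The cause was not tested. Depth limits the low genes most: Atg4d, Atg10 and Tfeb had smallest counts of 24, 12 and 16.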
